A study of Mus musculus with 58 samples.

Results

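The RNA level, the ribosome footprints and the footprints per RNA of 9 oligodendrocyte and myelin genes were described in the striatum of mice with a hemi-deletion in the 16p11.2 region. The genes were taken by name (Mbp, Mog, Mag, Mobp, Cnp, Cldn11, Olig1, Olig2 and Sox10). All 9 were found in all the count tables, among 54532 genes in the RNA-seq tables and 18411 genes in the lysate and footprint tables. The 3g and 16p lines of mice, all labelled strain B6129S, were each compared with their own wt mice. 3g del/+ mice carry CRISPR/Cas9 mutations with a premature stop on 1 allele of Taok2, Sez6l2 and Mvp, and 16p11.2 del/+ mice lack 1 copy of the whole syntenic region. RNA-seq covered 32 libraries of both sexes at 10 to 14 weeks of age, with 4 libraries for each line, genotype and sex. Total RNA from striatal lysate and ribosome footprints from the same lysate were sequenced in 13 males, 3 wt and 3 del/+ of the 3g line and 4 wt and 3 del/+ of the 16p line. Their age is not given in the sources used here. Lysate and footprint libraries of one animal share its number, while the 16p RNA-seq libraries are numbered 1 to 4 in every group, and the p-values measure the spread between these samples, which may be technical where separate animals are not stated.

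Oligodendrocytes wrap axons in myelin, a stack of compacted membrane that speeds conduction and supports the axon. Olig1, Olig2 and Sox10 are transcription factors of the whole oligodendrocyte lineage, from precursor to mature cell, while the myelin proteins are made in quantity only after differentiation. In the striatum the cells lie in the fiber bundles that cross the grey matter and among the projection neurons. Several myelin mRNAs, Mbp and Mobp among them, are known to be carried into the processes and translated there.

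The total count per library ranged from 11711099 to 65529807 in RNA-seq, from 15102576 to 19122488 in lysate RNA and from 342052 to 678130 in footprints. CPM below means the count of a gene divided by its TMM-adjusted library total, and levels of different genes were not compared, since the tables hold no transcript lengths. In RNA-seq 3 libraries went against their labels or stood apart. On an axis of 11384 genes that differed between the lines in wt females, where 0 is the 3g mean and 1 the 16p mean, 3g wt male 17 lay at 0.849 and 16p11.2 del/+ male 4 at 0.211, while the remaining 3g libraries (n = 15) ran from -0.0803 to 0.174 and the remaining 16p libraries (n = 15) from 0.818 to 1.25. The wt females, which set this axis, are counted among the remaining libraries. The library labelled 16p11.2 del/+ female 1 held 0.462 CPM of Xist, which the other 15 female libraries held at 326 to 970 CPM. It held 38.5 CPM of Ddx3y, against 0 CPM in those 15 and 30.15 to 54.1 CPM in the 16 male libraries. The males held 0 to 0.557 CPM of Xist, so both values of this library lay in the male range. It was kept under its label in the main fits. In both lines Sez6l2, mutated or deleted, was lower in del/+ with no overlap of the genotypes, with a mean of 0.69 of wt in 3g del/+ and 0.43 of wt in 16p11.2 del/+ by RNA-seq. Taok2 stood at 0.982 of wt in 3g del/+ RNA-seq libraries and at 0.492 in 16p11.2 del/+. In 16p11.2 del/+ male 4 Taok2 was at 89.0 CPM. The 16p11.2 del/+ libraries ran from 83.2 to 94.9 CPM and the 3g del/+ libraries from 156 to 197 CPM. Its Taok2 level thus matched its label, while its place on the axis lay nearer the 3g libraries. The 10 striatal projection neuron genes summed to 4816 to 8975 CPM over the 32 libraries, and 6 cortical excitatory neuron genes to 34.3 to 894 CPM in the 3g line and 741 to 1307 CPM in the 16p line.

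Mbp, encoding myelin basic protein, which binds the inner faces of the myelin membrane together, was higher in the 16p than in the 3g line in most RNA-seq libraries. In 3g wt males the level was 5813, 2403, 1849 and 2873 CPM, and in 3g del/+ males 2351, 2693, 3145 and 3075 CPM. In 3g wt females it was 2772, 2539, 2984 and 3490 CPM, and in 3g del/+ females 2593, 2465, 2753 and 2774 CPM. The single high value in 3g wt males was male 17, the library that stood apart, and the genotypes overlapped in both sexes. In the 16p line Mbp was at 6315, 5519, 5760 and 4456 CPM in wt males, at 5752, 4990, 6222 and 2547 CPM in del/+ males, at 5689, 7018, 5703 and 4770 CPM in wt females and at 4690, 5318, 7599 and 7300 CPM in del/+ females. The lowest of these, in a del/+ male, was again a library that stood apart, and the genotypes overlapped.

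**Figure D1:**
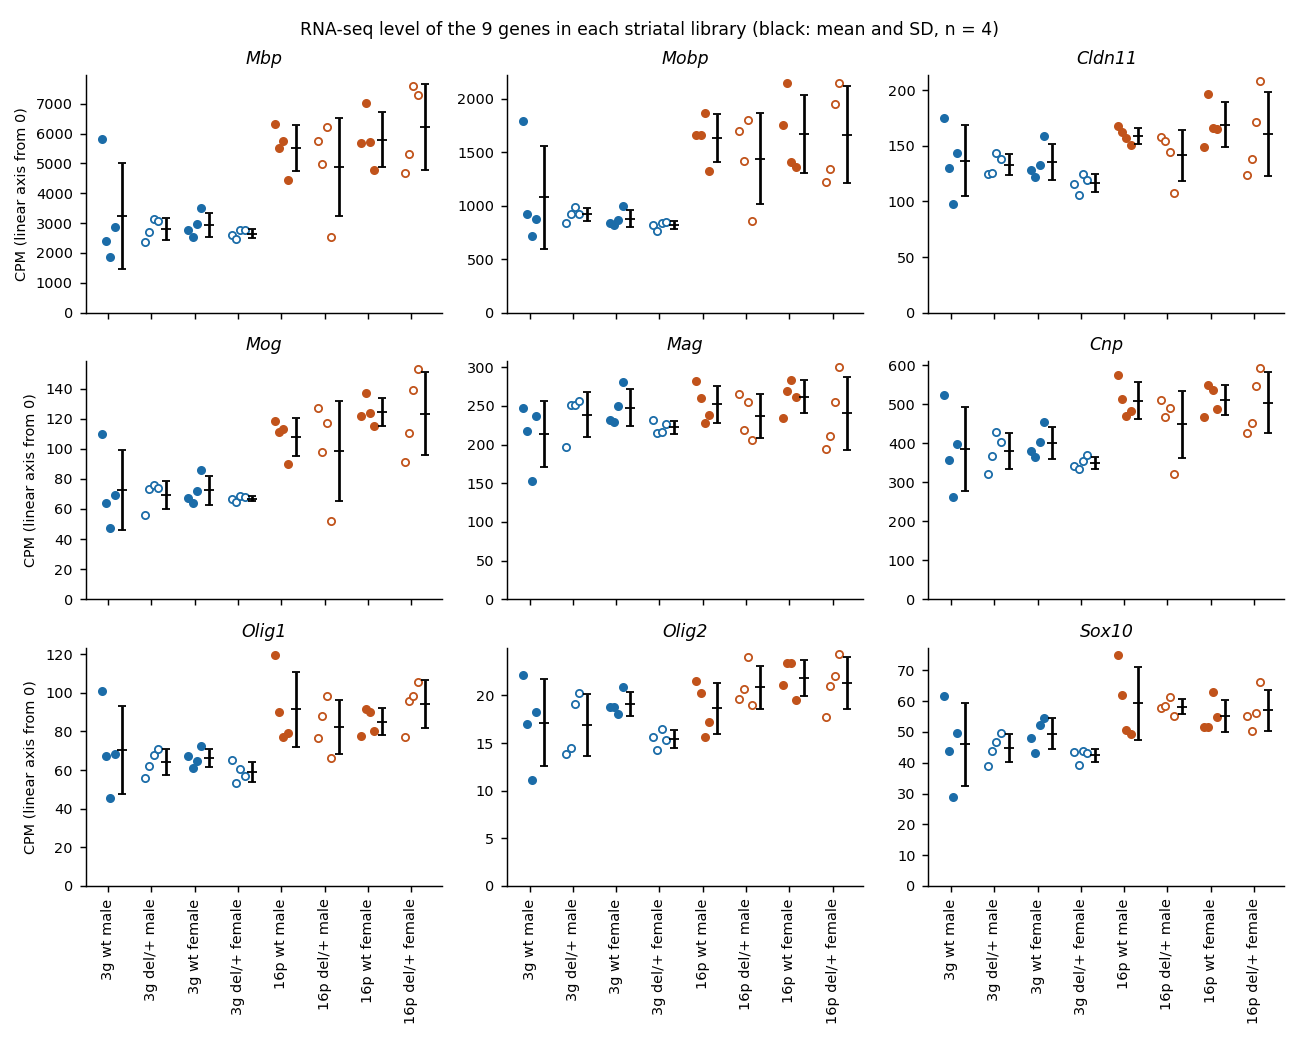
CPM (linear axis from 0) of each gene in each of the 32 RNA-seq libraries, by line (blue 3g, orange 16p), genotype (filled wt, open del/+) and sex, with the mean and SD of the 4 libraries in black. The wt and del/+ points overlap within most groups, 3g wt male 17 is the high point of its group for Mbp at 5813 CPM, and the 16p points of Mbp, Mobp and Mog lie mostly above the 3g points.

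Mobp, a small basic protein of compact myelin, and Mog, a surface protein of the outermost myelin layer, followed the pattern of Mbp. Mobp was at 842, 817, 865 and 995 CPM in 3g wt females and at 821, 766, 837 and 847 CPM in 3g del/+ females, against 1759, 2147, 1408 and 1365 CPM in 16p wt females. Mog was at 67.2, 64.3, 71.7 and 86.2 CPM in 3g wt females and at 121.9, 137.0, 123.7 and 115.2 CPM in 16p wt females. For both genes the wt females of the lines did not overlap, as held for 55.2% of all genes. The 250 bases before the annotated start of Mobp and of Mog are shown, from RefSeq on GRCm38.p6, read 5′ to 3′ on the gene's own strand. A link between these sequences and the levels was not tested. Mobp lies at chromosome 9, 120149742 to 120181488, on the plus strand, and Mog at chromosome 17, 37010740 to 37023398, on the minus strand. Capitals mark matches on either strand to a core motif. The SOX core was searched as ACAAAG and in the spelling TCAAAG, and also under the form ACAATG together with its counterpart TCAATG. The core of MYRF, a driver of myelin gene expression, was searched as CTGGCAC and in the spelling CTGGTAC.
Mobp, chr9:120149492-120149741: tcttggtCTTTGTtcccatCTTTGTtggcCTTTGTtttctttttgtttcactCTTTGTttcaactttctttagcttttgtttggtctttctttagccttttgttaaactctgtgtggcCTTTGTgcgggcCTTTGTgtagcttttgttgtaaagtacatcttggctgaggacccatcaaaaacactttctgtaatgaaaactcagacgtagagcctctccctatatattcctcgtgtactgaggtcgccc
Mog, chr17:37023399-37023648: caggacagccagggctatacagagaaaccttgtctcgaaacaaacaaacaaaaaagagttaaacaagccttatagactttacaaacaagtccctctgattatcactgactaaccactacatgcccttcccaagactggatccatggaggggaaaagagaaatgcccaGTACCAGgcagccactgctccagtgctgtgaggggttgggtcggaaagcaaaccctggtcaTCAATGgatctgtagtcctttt
The Mobp window held 6 SOX matches and 0 MYRF matches, and the Mog window 1 of each. Of 32851 promoter windows of this length, 39.4% held a SOX match and 5.93% a MYRF match, so a SOX match is common. Windows were found for 6 of the 9 genes; Olig1, Sox10 and Mbp were not among them. Mag has 3 annotated starts, whose windows held 1 SOX match each and in 2 of the 3, which overlap, a MYRF match. Cnp held 2 SOX matches and 1 MYRF match, Olig2 held 2 and 0, and Cldn11 held 0 of either.

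The genotype comparison in females of the 3g line asked whether the 3g hemi-deletion moves these genes in that sex. All 9 were lower in 3g del/+ than in wt females, with a median log2 fold change of -0.17 and a range from -0.31 to -0.11, while the median over all 19024 genes tested was -0.0012. Olig2, which specifies the lineage, was at 18.7, 18.8, 18.1 and 20.9 CPM in wt and at 15.7, 14.3, 16.5 and 15.3 CPM in del/+ females. The genotypes did not overlap, which held for 5.66% of all genes tested. Its log2 fold change was -0.31 (SE 0.06), and the adjusted p was 0.204. Sox10, a direct activator of myelin genes, was at 48.1, 43.2, 52.1 and 54.4 CPM in wt and at 43.4, 39.3, 43.7 and 43.3 CPM in del/+ females, and the groups overlapped. The log2 fold change of Sox10 was -0.23 (SE 0.07, adjusted p = 0.299). None of the 9 genes passed the quasi-likelihood test of edgeR at an adjusted p under 0.05, where 0.00526% of all genes did. An unadjusted p under 0.05 was reached by 6 of the 9 and by 11.0% of all genes. DESeq2 called 109 genes, 0.301% of all, and of the 9 it called 1, Olig2, at an adjusted p of 0.0107. In tissue RNA, fewer oligodendrocytes and less RNA per cell cannot be told apart.

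Of the 29 other myelin genes, 27 were lower in 3g del/+ females and 2 higher, with a median log2 fold change of -0.12, and 0 passed the test in either direction (10 had an unadjusted p under 0.05). Of the 9 other oligodendrocyte transcription factors 8 were lower, and of the 14 precursor and newly formed oligodendrocyte genes 11, with none called. Of the lists of other cell types 0 genes were called. The 6 cortical excitatory neuron genes were all higher, with a median of 0.74 and 0 with an unadjusted p under 0.05. They summed to 159 to 626 CPM in del/+ against 112 to 557 CPM in wt females. The 4 choroid plexus genes tested were all lower, with a median of -1.23 and 3 with an unadjusted p under 0.05. Their list summed to 16.45 to 27.7 CPM in del/+ against 31.65 to 35.6 CPM in wt. The 6 general neuron genes were all higher, with a median of 0.13 and 3 with an unadjusted p under 0.05, and 7 of 8 microglia genes were lower, with a median of -0.08. The part of these lists in the result was not tested. The count of genes called over the whole table rested on single libraries: it was 1 with all 8 females, 175 without 3g wt female 39 and 18 without 3g del/+ female 37, with 0 of the 9 called each time.

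In males of the 3g line 8 of the 9 genes were lower in del/+ and 1, Mag, was higher, with a median log2 fold change of -0.03 and none called, where 0% of 19081 genes were called. Unadjusted, 0 of the 9 and 1.44% of all genes had a p under 0.05, and by DESeq2 0 of the 9 were called. Mbp had a log2 fold change of -0.19, with a 95% interval from -0.84 to 0.47. The direction over the 9 genes depended on which library was left out. With each of the 8 left out, the median ran from -0.19 to 0.14. Without male 17 all 9 genes were higher in del/+ males, with a median of 0.14 and Mbp at 0.25 (SE 0.13), and 0 were called. Averaged over the 9 genes, male 17 lay 0.56 above the mean of the wt males, and wt male 26 lay -0.54 from it. The effect in females minus that in males was tested directly, and 0 of the 9 were called, with Olig2 at -0.31 (95% interval -0.78 to 0.16), where 0% of genes were called and, unadjusted, 0 of the 9 and 2.69% of genes had a p under 0.05. In that test of the difference between the sexes, leaving out male 17 put all 9 below 0, with a median of -0.36. None of the 9 was called then, and 0 genes of the whole table. That was the lowest median when each of the 16 libraries was left out. The highest was -0.03, and 0 of the 9 were called each time. The wt males that remain without male 17 include male 26. Over both sexes 0 of the 9 were called for genotype in the 3g line, against 0.00504% of genes (unadjusted 0 of the 9 and 5.67%).

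In the 16p line none of the 9 was called in either sex by edgeR or by DESeq2, where 0.106% of genes were called in males and 0.144% in females; unadjusted, 0 of the 9 had a p under 0.05 in either sex, against 5.82% and 4.47% of genes. Over both sexes it was 0 of the 9 against 0.180% of genes (unadjusted 0 and 6.44%), and for genotype by sex 0 of the 9 against 0% (unadjusted 0 and 4.33%). In males 8 of 9 were lower in 16p11.2 del/+ with a median log2 fold change of -0.15, and without del/+ male 4 the median was -8.6e-04. Cnp, an enzyme of the uncompacted myelin cytoplasm, was at 575, 513, 469 and 483 CPM in wt males and at 512, 468, 492 and 322 CPM in del/+ males. The lowest of these was del/+ male 4, and the groups overlapped. In females 6 of 9 were lower (5 with RLE scaling), with a median of -0.02. Without del/+ female 1, 8 of 9 were higher, with a median of 0.05. Mag, the adhesion protein of the membrane next to the axon, had a log2 fold change of -0.13 in females, with a 95% interval from -0.41 to 0.16. The difference between the lines in the genotype effect, tested over the 32 libraries, was called for 0 of the 9, against 0.128% of genes (unadjusted 0 and 4.13%), and ranged from -0.11 for Mag to 0.22 for Olig2.

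**Figure D2:**
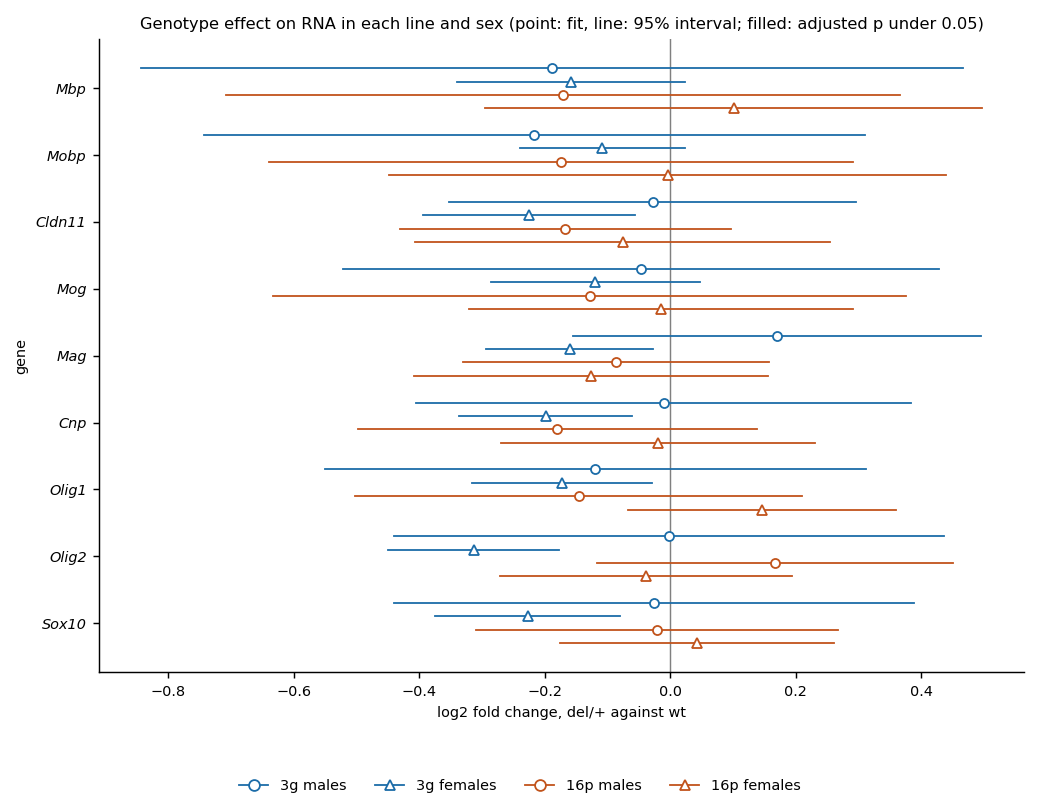
Fitted log2 fold change of del/+ against wt for each gene in RNA-seq, by line (blue 3g, orange 16p) and sex (circles males, triangles females), with its 95% interval; filled points would mark an adjusted p under 0.05. No point is filled, and the 9 triangles of the 3g line all lie below 0, between -0.31 and -0.11.

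In lysate RNA and in footprints of males none of the 9 was called for genotype in either line by edgeR or DESeq2, where 0.0209% of genes were called in the lysate RNA of the 3g line, 0.133% in that of the 16p line, and 0.0132% and 0.117% in their footprints. Olig2 in lysate RNA was at 14.4, 15.4 and 15.7 CPM in 3g wt males and at 11.0, 12.9 and 13.4 CPM in 3g del/+ males. These 2 groups did not overlap, as held for 9.65% of all genes, and the log2 fold change was -0.28 (SE 0.13, adjusted p = 0.94). In footprints of the same animals Olig2 was at 0.13 (SE 0.50), and in RNA-seq of 3g males at -0.0018 (SE 0.20). Unadjusted, 1 of the 9 in the lysate RNA of the 3g line had a p under 0.05, against 4.92% of genes, and 1 in that of the 16p line, against 4.41%, namely Mag, at a log2 fold change of -0.30 (SE 0.12, adjusted p = 0.99). In footprints, unadjusted, 2 of the 9 had a p under 0.05 in the 3g line, against 7.97% of genes, Cnp at -0.67 (SE 0.25) and Olig1 at -0.60 (SE 0.25), and 0 in the 16p line, against 6.15%. Olig1 footprints were at 93.4, 73.8 and 87.6 CPM in 3g wt and at 58.9, 58.0 and 51.7 CPM in 3g del/+ males, with no overlap, as held for 13.3% of genes. Mobp footprints did not overlap either, but in the other direction. They were at 246.2 to 302.2 CPM in 3g wt and at 311.4 to 403.3 CPM in 3g del/+ males. The log2 fold change of Mobp was 0.29 (SE 0.23, adjusted p = 0.79 by edgeR). Footprint counts of several genes were small, from 7 to 62 per library for Cnp and from 5 to 30 for Olig2, so that only large differences were detectable at this depth.

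In RNA-seq of wt mice all 9 genes were higher in 16p wt than in 3g wt mice, and 6 were called, where 61.8% of all genes tested were called and 30.6% were called higher. Mbp had a log2 difference of 0.86 (SE 0.18, adjusted p = 5.8e-04), Mobp of 0.75 (SE 0.16, adjusted p = 6.5e-04) and Mog of 0.67 (SE 0.12, adjusted p = 2.8e-04). Cnp followed at 0.37 (SE 0.10), Olig1, a lineage factor that promotes maturation, at 0.36 (SE 0.12) and Cldn11, the tight junction protein that seals the myelin layers, at 0.26 (SE 0.09). Sox10 at 0.25, Mag at 0.15 and Olig2 at 0.15 did not pass. Mag was at 246.6, 218.1, 152.7 and 237.0 CPM in 3g wt males and at 281.9, 259.6, 228.3 and 237.6 CPM in 16p wt males, with overlap. Cldn11 was at 127.9, 122.2, 132.8 and 159.0 CPM in 3g wt females and at 148.6, 196.4, 166.4 and 164.8 CPM in 16p wt females, overlapping through 3g wt female 39. Olig1 was at 67.1, 61.3, 64.5 and 72.4 CPM in 3g wt females and at 77.6, 91.7, 89.95 and 80.3 CPM in 16p wt females, with no overlap, as for the 55.2% of genes above. The line, its breeding and any sequencing batch cannot be told apart in these libraries.

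Among the 29 other myelin genes 24 were called higher and 1 lower in 16p wt mice, led by Trf, an iron carrier, at 0.88 (SE 0.13) and Qdpr at 0.84 (SE 0.13). Of the 9 other transcription factors Myrf was called higher at 0.21 (SE 0.09, adjusted p = 0.0499), and Tcf7l2 at -0.92 (SE 0.18) and Sox8 at -0.14 (SE 0.05) lower. Of the 14 precursor and newly formed oligodendrocyte genes 4 were called higher and 6 lower, among them Bcas1 at 0.91 and the precursor gene Cspg4 at -0.62. Markers of other cells differed as well: 5 of 6 cortical excitatory neuron genes were called higher, with a median of 1.73 over the 6, 6 of 8 astrocyte genes higher, and 5 of 6 endothelial genes lower. The part of tissue composition in the result was not tested.

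The sexes gave the line difference separately. In females alone 6 of the 9 were called, against 59.9% of all genes, with Mbp at 0.96 (SE 0.13). In males alone 0 of the 9 were called, with Mbp at 0.76 (SE 0.31, adjusted p = 0.114), and 3 genes of the whole table, 0.0162%, were called. Without 3g wt male 17 the males gave 6 called of 9 and 8835 of 19093 genes in all, or 46.3%, with Mbp at 1.198 (SE 0.17). Over both sexes without male 17, 7 of the 9 and 67.0% of all genes were called, Sox10 being added at 0.32 (adjusted p = 0.0226).

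A separate set of animals, males only, gave 0 calls among the 9 by edgeR. Whether its difference is smaller than in RNA-seq was not tested. In lysate RNA of wt males 0 of the 9 were called, 4 were higher and 5 lower (7 and 2 with RLE scaling), 1 of the 9 and 10.8% of genes had an unadjusted p under 0.05, DESeq2 gave 0 calls, and the median was -0.0021, where 0.0139% of genes were called. Mobp was at 725, 941 and 891 CPM in 3g wt and at 978, 1008, 1615 and 1131 CPM in 16p wt males, with no overlap, as held for 10.9% of genes. Its log2 difference was 0.48 (SE 0.17, adjusted p = 0.34). Mobp was also the single gene of the 9 whose groups did not overlap in footprints, at 292.0, 302.2 and 246.2 CPM in 3g wt and at 435, 405, 522 and 493 CPM in 16p wt males. There the log2 difference was 0.72 (SE 0.22, adjusted p = 0.211 by edgeR and 0.0151 by DESeq2), where edgeR called 0.241% and DESeq2 0.390% of genes, 10.2% did not overlap and 10.5% had an unadjusted p under 0.05, as had 1 of the 9. Mbp was 0.28 higher in lysate RNA (95% interval -0.06 to 0.62). The 6 cortical excitatory neuron genes had a median of 0.19 in this lysate comparison, and 0 were called.

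**Figure D3:**
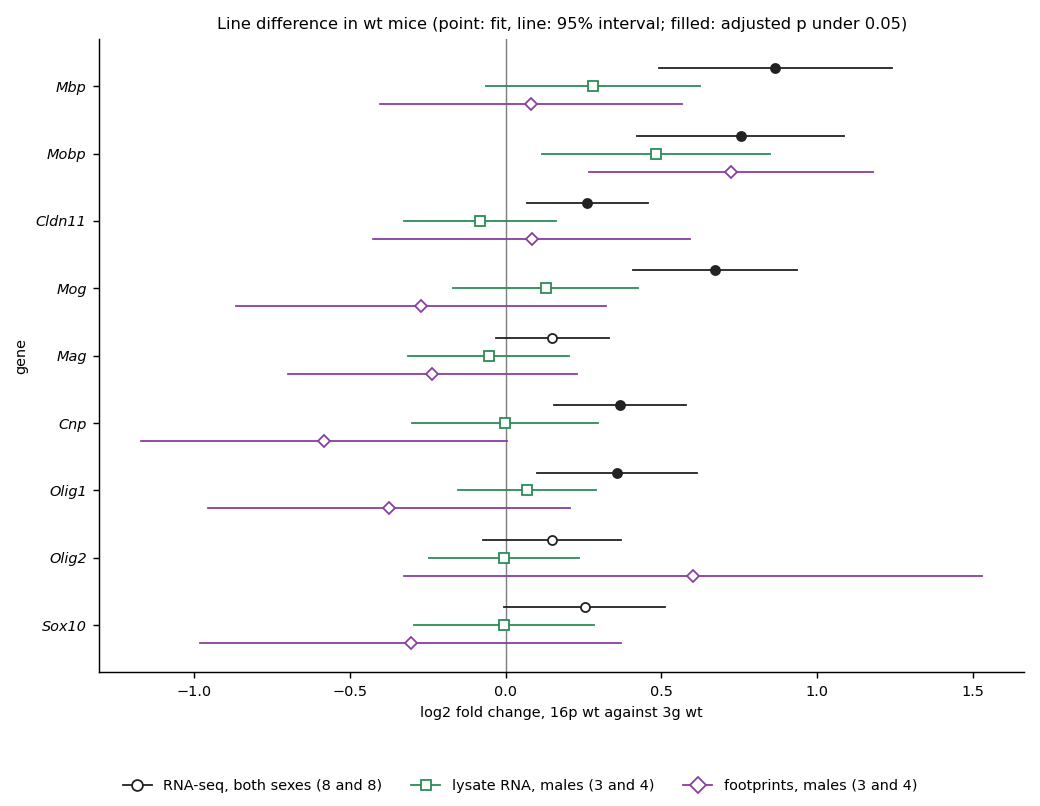
Fitted log2 difference of 16p wt against 3g wt mice for each gene in RNA-seq (black circles, 8 and 8 libraries), lysate RNA (green squares) and footprints (purple diamonds, both 3 and 4 males), with 95% intervals; filled points passed an adjusted p under 0.05. The 9 RNA-seq points lie between 0.15 and 0.86 and 6 are filled, while no lysate or footprint point is filled.

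Footprints per RNA, the footprint CPM over the lysate RNA CPM of the same animal, set the 9 genes apart from each other. Both tables were scaled together, so that the typical gene lies near 1. Mobp had a ratio of 0.269, 0.225 and 0.191 in the 3g wt males and of 0.301, 0.266, 0.221 and 0.310 in the 16p wt males. Mbp lay at 0.548, 0.467 and 0.433 and at 0.507, 0.414, 0.338 and 0.441. Both were below 1 in every animal. Mag lay at 3.99, 4.59 and 3.04 and at 3.16, 3.38, 3.44 and 3.66, above 1 in every animal.

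In the test of footprints against lysate RNA, 4 of the 9 were called higher and 2 lower in each line, where 44.3% of all genes were called in the 3g line and 46.6% in the 16p line: 20.6% and 23.7% were called higher and lower in the 3g line and 21.4% and 25.2% in the 16p line. Mobp was at -2.12 (SE 0.20, adjusted p = 3.7e-06) in 3g wt and at -1.82 (SE 0.18, adjusted p = 6.4e-08) in 16p wt males. Mbp was at -1.04 (SE 0.20) and -1.18 (SE 0.17), and Mag at 1.97 (SE 0.21) and 1.86 (SE 0.13), all called. Sox10 was called higher in both lines, at 0.86 (SE 0.23) and 0.62 (SE 0.22), and lost the call in the 3g line when either of 2 of its 3 wt animals was left out and in the 16p line when any of 3 of its 4 was. Mog and Olig1 passed in the 3g line and Cldn11 and Olig2 in the 16p line, but the difference between the lines, tested itself, was called for 0 of the 9. Mog lost its call when either of 2 of the 3 animals was left out, and Olig1 gained one in the 16p line with DESeq2 (adjusted p = 0.00916). Cnp was called in neither. Olig2 rested on 5 to 22 footprints per wt library, and its call at 0.85 in the 16p line was lost when any of 3 of the 4 animals was left out. Among the 29 other myelin genes 9 were called higher and 9 lower in the 3g line, and 8 and 9 in the 16p line. Genes could enter this test through their lysate counts alone. Over the footprint libraries by themselves, 20 of the 29, all 9 members and 7692 genes in all passed the low-count filter. A lower call can thus rest on few footprints, here and in the shares of all genes called lower. Cntn2 stood at 1.25 and 1.37 and Plekhb1 at -1.34 and -1.91. Whether lysate reads were counted over the coding region alone is not given in the sources used here.

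Genotype did not move the ratio past the test for any of the 9. In the 3g line 0 of the 9 and 0% of all genes were called, in the 16p line 0 of the 9 and 0.00664%, and for the difference between wt lines 0 of the 9 and 0.0132%. Unadjusted, 0 of the 9 had a p under 0.05 in these 3 comparisons, against 7.67%, 6.24% and 7.65% of genes, and DESeq2 gave 0 calls. With the animal as a block, 0 of the 9 were called in each, while the genes called over the whole table went from 0 to 10, from 1 to 10 and from 2 to 33. Cnp in the 3g line was at -0.56 (95% interval -1.14 to 0.02).

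**Figure D4:**
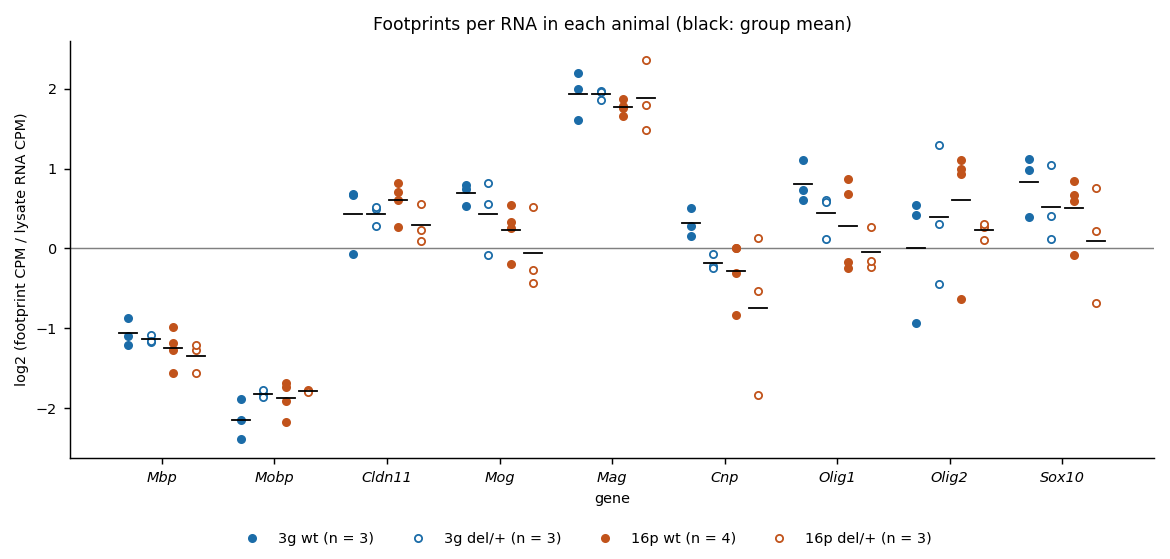
Log2 of footprint CPM over lysate RNA CPM for each gene in each of the 13 animals, by line (blue 3g, orange 16p) and genotype (filled wt, open del/+), with the group mean as a black bar. Mobp and Mbp lie below 0 and Mag above 0 in every animal, and the groups of each gene overlap in most cases.

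The 9 genes varied together between libraries of the same group. Over the 32 RNA-seq libraries, with each library taken as its deviation from the mean of its line, sex and genotype, the 36 pairs of genes had Pearson correlations from 0.537 to 0.962, with a median of 0.823. The libraries share their dissection and depth within a column, so these values describe the libraries and are no test. Averaged over the 9 genes, 3g wt male 17 lay 0.56 above its group mean on the log2 scale, 3g wt male 26 lay -0.54 from it and 16p11.2 del/+ male 4 lay -0.44 from it. Cnp followed the mean of the other 8 most closely (r = 0.9748) and Sox10 least (r = 0.779). Without the 3 libraries that stood apart, Cnp was at 0.951 and Mobp, at 0.653, was the lowest.

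**Figure D5:**
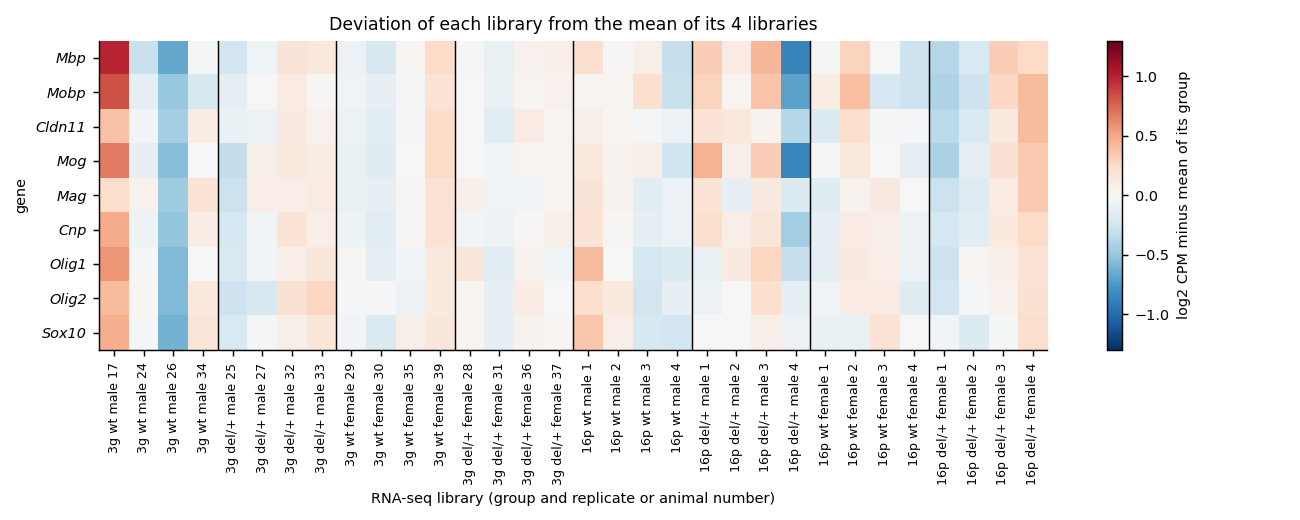
Deviation of log2 CPM from the mean of its 4 libraries, for each gene (rows) and RNA-seq library (columns, black lines between groups), red above and blue below the mean. Whole columns share a sign: 3g wt male 17 is red for all 9 genes, with a mean of 0.56, and 3g wt male 26 is blue, with a mean of -0.54.

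Of the 20333 other genes that passed the filter, those most like the mean of the 9 in these deviations included Gprc5b (r = 0.952), Rhog (0.948), Gltp (0.945), Slc44a1 (0.945), Tmem88b (0.943), Csrp1 (0.937), Mal (0.934), Tmem125 (0.934) and P3h4 (0.934). Spearman coefficients for these 9 ran from 0.88 to 0.948. Mal and Tmem88b were on the list of other myelin genes, and the other 7 were on none of the lists used here. Without the 3 libraries that stood apart, the r of these 9 lay between 0.8515 and 0.912.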

How the data were processed

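Striatal RNA-seq (32 libraries), lysate RNA (13) and ribosome footprints (13) were analysed from the raw counts per gene that the authors deposited. Per the labels, RNA-seq reads were aligned to mm10 and counted with HTSeq, and lysate and footprint reads were aligned with Bowtie2 to mm39. Versions, annotation and the counted region of the lysate and footprint tables are not given in the sources used here. The labels name both polyA RNA and a ribosomal depletion kit.

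Counts were filtered (filterByExpr), scaled by TMM and tested by the quasi-likelihood test of edgeR 4.0.16 (limma 3.58.1, R 4.3.3) in 21 comparisons, two-sided, with Benjamini-Hochberg adjustment over all genes tested in each and a threshold of 0.05. Genotype and line effects on footprints per RNA were tested as the interaction with assay in a joint fit, and footprints against RNA as the assay term. These main fits held no term for the animal, so its lysate and footprint libraries entered unpaired. The animal block was an alternative. Log2 CPM used a prior count of 2. Alternatives were DESeq2 1.42.0, RLE scaling, no filter, a replicate block, each library left out, the 3 libraries that stand apart left out, and each sex alone; males without 3g wt male 17 was added after seeing the data. The fits were tested on simulated data. No libraries had identical counts.

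The members and gene lists were chosen with earlier results of these data known. Named were the 9 members, up to 5 called genes of each other list by smallest p, and the 10 genes most like the mean of the members, of which 1 is not reported here. Lysate and footprint libraries are paired by animal in the labels, and the deviations of the 13 pairs correlated at 0.049 to 0.14. For 13 of 13 lysate libraries, the footprint library of the same animal was the best match among those of its line and genotype. Promoters came from RefSeq (GRCm38.p6).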

Additional observations from a re-analysis of the deposited data

Results flagged for a closer look

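Of 90 groups of 4 libraries examined, 5 held a library set apart from the other 3 by more than Dixon's 95% critical value, where chance gives about 1 in 20 groups. In 3g del/+ male 25 Mog was low at 55.7 CPM (the others 73.0 to 75.6) and Mag at 196.2 CPM (251.3 to 256.3). In 3g del/+ female 31 Sox10 was low at 39.3 CPM (43.3 to 43.7). In footprints of 16p wt males, Mag was high in 1 animal at 249.3 CPM (206.3 to 211.4) and Olig2 was low in another animal at 13.2 CPM (43.7 to 46.9), a value that rests on 5 footprints.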

How the results depend on the processing

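No called member changed direction. Directions of members that were not called did turn: without 3g wt male 17 from 8 of 9 lower to 9 higher in 3g males, without 16p11.2 del/+ female 1 from 6 lower to 8 higher in 16p females, and with RLE scaling from 4 to 7 higher in lysate RNA of wt males. For single members, 17 calls were lost and 9 gained under the alternatives. Of the counts of members called, 291 stayed within 1.5 times, mostly counts of 0 that stayed 0, and 4 moved. In 3g females the count went from 0 to 1 with DESeq2 and to 1 with no filter on low counts, Olig2 both times. The line difference in RNA-seq went from 6 to 0 in males alone, and that in wt footprints from 0 to 1 with DESeq2 (Mobp). The cause was not tested. Leaving out each library, the line difference in RNA-seq gave 6 to 7 called members, footprints against RNA 4 to 5 in the 3g line and 4 to 6 in the 16p line, and the other comparisons 0. Over all genes, 3g females gave 1 called gene, 109 with DESeq2 and 158 with no filter; 16p males gave 19 and 37 with DESeq2, and 16p females 26 and 50 (45 with no filter). With DESeq2 the genes called went from 1 to 16 in the 3g line and from 34 to 60 in the 16p line over both sexes, from 0 to 3 for genotype by sex in the 16p line, from 3 to 13 and 19 to 32 for genotype in lysate RNA (3g, 16p), from 2 to 162 for the line difference there, from 1 to 13, 7 to 21 and 16 to 68 for the same in footprints (127, 43 and 175 with no filter), and from 0 to 26, 1 to 4 and 2 to 45 in footprints per RNA. DESeq2 moved the median of all genes in footprints against RNA by 0.31 in the 3g line and 0.33 in the 16p line. The replicate numbers of the 16p RNA-seq libraries gave no sign of pairing (8 pairs, r from -0.26 to 0.11, 0 best matches). With so few libraries per group this check cannot exclude a weak pairing. With the replicate block 0 of the 9 were called there, with 14 genes in all in males and 22 in females. With the animal block, footprints against RNA gave 6 called members in each line. Depth limits the footprints, with 5 to 30 counts per library for Olig2 and 373 to 746 for Mbp.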
